A study of Mus musculus with 6 samples.

Results

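Messenger RNA of 10 genes that mark, read and process DNA double-strand breaks was measured in testes of day 10 mice: H2afx, Nbn, Mre11a, Rad50, Mdc1, Rnf8, Rnf168, Uimc1, Trp53bp1 and Rbbp8. They were chosen by symbol for their roles in break sensing, chromatin ubiquitin signalling and end resection, and all 10 were found among the 22219 genes of the deposited table and passed the filter on low values. The cKO group was 3 testis libraries of mice in which Eif5 was deleted conditionally in germ cells, made by crossing a floxed Eif5 line with Stra8-Cre mice, and the Control group was 3 testis libraries of the same age. Stra8 is induced by retinoic acid in spermatogonia, so its promoter drives the Cre in germ cells, and the somatic cells of the testis keep the gene. The labels do not give the genotype of the controls, so effects of the Cre or of floxed alleles alone cannot be told apart from those of the deletion. The title of the study names DNA repair defects among the processes of interest, and the question here is how the break signalling genes stood in the knockout testis.

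When both strands of DNA break, the complex of MRE11, RAD50 and NBN binds the ends and activates the kinase ATM, which phosphorylates the histone variant H2AX near its C-terminus. MDC1 binds this mark, γH2AX, and recruits the ubiquitin ligases RNF8 and RNF168, whose products are read by RAP80 (encoded by Uimc1) and 53BP1 (Trp53bp1), while CtIP (Rbbp8) starts the resection of ends for repair by recombination. In the testis the same proteins act on the programmed breaks of meiosis, and H2AX and MDC1 are also needed to silence the X and Y chromosomes in spermatocytes. RNA levels do not show γH2AX, which is a modification of the protein.

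The values are normalised read counts, meaning reads divided by 1 size factor per library. Recovered reads ran from 32555443 to 48409550 per library. Pearson correlations across genes ranged over 0.981 to 0.984 for libraries of the same group, and over 0.977 to 0.981 for cKO with Control libraries. Eif5, the deleted gene, had 8548, 8982 and 9575 normalised read counts in cKO, against 11964, 10551 and 11187 in Control. All cKO libraries were below all controls (log2 fold change -0.31, SE 0.0947, adjusted p = 0.024 in limma). The call ended when cKO replicate 1 (adjusted p = 0.13) or cKO replicate 2 (0.0875) was left out, and the value turned to 0.27 when libraries were scaled to a germ cell list (adjusted p = 0.0854). No marker of the germ cell, Sertoli or other cell type lists was at 0 in all libraries.

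H2afx rose in cKO, 6 of the other 9 genes fell, and Rnf8, Nbn and Rnf168 did not pass the test (limma, adjusted p under 0.05 over 17570 genes). Of all genes tested 9.63% were called higher, 10.4% lower and 20% in either direction. For 9 of the 10 genes every cKO library was on the same side of every control, as for 36.7% of all tested genes. With library totals, where 4.59% of genes were higher and 14.2% lower, and with edgeR (8.96% and 10.6%) or DESeq2 (10.7% and 11.5%) on recovered reads, 1 of the 10 was again higher and 6 lower. The median log2 fold change was -0.38 over the 10 genes and 0.01 over all tested genes. These directions hold with the deposited size factors, which leave the median gene unchanged. In bulk tissue, fewer cells of a type and less RNA per cell cannot be told apart, so the 10 genes were also set against marker lists of testis cells. Scaled to the summed reads of 6 germ cell markers, all tested genes shifted to a median of 0.58, 61.9% were called higher and 1.41% lower. H2afx, Rnf168 and Nbn were then called higher and 0 of the 10 lower. The 6 germ cell markers themselves had a median of 0.15 under this scaling. With the deposited factors their median was -0.43, while Dazl, the most abundant of them on the means, had -0.80. A positive value under this scaling is therefore not a rise against each germ cell marker. Scaled to the summed reads of 11 Sertoli cell markers, all genes shifted to a median of -0.39, 0.142% were called higher and 24.2% lower. H2afx was then not called, and 8 of the 10 were lower. Each way of scaling shifts all genes nearly alike, so values relative to the median gene are the same by construction, apart from the pseudocount. Among these 2 scalings, library totals and the deposited factors the log2 fold change relative to the median gene was 0.43 to 0.44 for H2afx. For Mdc1 it was -0.66 to -0.65.

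**Figure D1:**
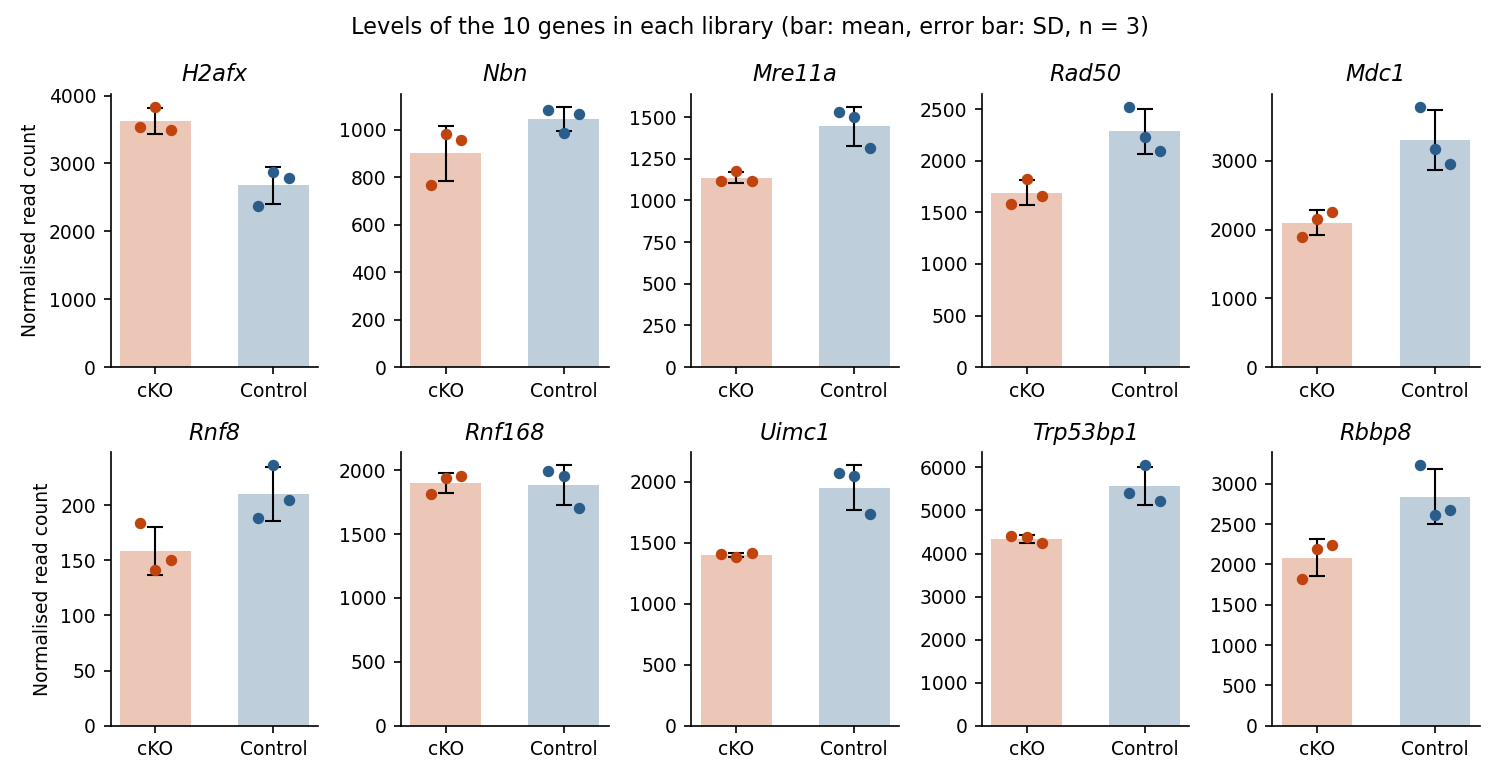
Normalised read counts of the 10 genes in cKO and Control libraries. Points are libraries, bars are means and error bars the SD (n = 3 per group), and each axis starts at 0. With the deposited size factors the cKO points lie above the Control points for H2afx, overlap them for Rnf168 and lie below them for the other 8, of which 7 (all but Mdc1) have a higher mean in cKO when scaled to the germ cell list. That scaling moves the median log2 fold change of all tested genes to 0.58 and that of the germ cell markers to 0.15.

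H2afx encodes the H2A variant that carries the damage mark. The end of its coding sequence is shown because the mark sits there. It is the last 60 bases of the 432-base coding sequence with the stop codon, chr9:44335134-44335193 on the plus strand of GRCm38, from the GENCODE M21 transcript. The transcript has 1 exon. Capitals mark the codons of the serine that is phosphorylated and of the glutamine after it, with 2 codons between them and the stop codon. The 60 bases hold 2 serine-glutamine codon pairs, and only the last is in capitals.
H2afx: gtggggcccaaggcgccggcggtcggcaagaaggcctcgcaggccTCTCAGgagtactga

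H2afx had 3539, 3838 and 3492 normalised read counts in cKO replicates 1 to 3, against 2373, 2880 and 2782 in Control replicates 1 to 3. All 3 cKO libraries lay above all 3 controls, and the lowest cKO value was above the highest Control value. The means were 3623 ± 188 in cKO and 2678 ± 269 in Control (SD, n = 3 each), a rise of 35.3%. H2afx had a log2 fold change of 0.44 (SE 0.0967, adjusted p = 0.00333 by limma), higher than that of 91.5% of tested genes. It was 1.02 scaled to the germ cell list and 0.038 scaled to the Sertoli cell list (adjusted p = 0.904), where the call ended. With library totals it was 0.35. Leaving out each library in turn gave 0.35 to 0.49, and each of these was called.

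The 3 genes of the end-binding complex were lower in cKO in every library, and 2 of them passed. Rad50 encodes the ATPase that tethers the ends. It had 1585, 1824 and 1661 normalised read counts in cKO, against 2526, 2235 and 2091 in Control. The groups did not overlap, and Rad50 fell by 26.0% on the means, with a log2 fold change of -0.43 (SE 0.1005, limma adjusted p = 0.00488) that became 0.15, not called, scaled to the germ cell list. Mre11a, the nuclease, had 1116, 1175 and 1118 normalised read counts in cKO, against 1528, 1498 and 1312 in Control. The 3 cKO libraries sat close together below the controls (log2 fold change -0.34, SE 0.102, limma adjusted p = 0.0215, and 0.24, not called, scaled to the germ cell list). This call ended without any 1 of 5 libraries, all but Control replicate 3, with adjusted p from 0.052 to 0.0785. Nbn, the subunit that contacts ATM, had 769, 981 and 957 normalised read counts in cKO, against 1084, 989 and 1068 in Control. Here cKO replicate 1 was well below the other libraries and cKO replicate 2 was just under Control replicate 2. For Nbn limma gave a log2 fold change of -0.22 (SE 0.115, adjusted p = 0.183) and -0.11 without cKO replicate 1. Scaled to the germ cell list it was 0.36 and called (adjusted p = 0.0342), and scaled to the Sertoli cell list -0.62 and called (adjusted p = 0.0325). Within a library the ratios of the 3 genes to each other need no scaling. Log2 of Mre11a over Rad50 was -0.57 ± 0.0641 in cKO and -0.66 ± 0.0750 in Control (SD, n = 3 each), and the groups overlapped (exact permutation test, 2-sided, p = 0.2). That of Nbn over Rad50 was -0.91 ± 0.126 in cKO and -1.12 ± 0.134 in Control (SD, n = 3 each; exact permutation test, p = 0.2). With 3 libraries a group the exact permutation test cannot go below p = 0.1.

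Mdc1, the adaptor that binds γH2AX, fell furthest of the 10. It had 1898, 2147 and 2254 normalised read counts in cKO, against 3787, 3169 and 2950 in Control. The highest cKO library was below the lowest control, and Control replicate 1 stood above the other controls. The means were 2100 ± 182 in cKO and 3302 ± 434 in Control (SD, n = 3 each), a drop of 36.4%. Mdc1 had a log2 fold change of -0.65 (SE 0.105, adjusted p = 0.00021 by limma), and 7.29% of tested genes had a lower one. Scaled to the germ cell list it was -0.0656 (adjusted p = 0.648). Without Control replicate 1 it was -0.55 and still called. Within a library, log2 of Mdc1 over the summed germ cell list was -3.27 ± 0.127 in cKO and -3.20 ± 0.0827 in Control (SD, n = 3 each), and the groups overlapped (exact permutation test, 2-sided, p = 0.5).

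RefSeq promoter windows, 250 bases before to 50 after the start of a gene on GRCm38.p6, were at hand for 6 of the 10 genes: Mdc1, Trp53bp1, Uimc1, Mre11a, Rnf8 and Rnf168. The windows of Mdc1, which fell furthest, and of Trp53bp1 are shown because 3 of the 4 motifs searched on both strands occur in them. Capitals mark a match, no match overlaps another, and bases before the start site have negative positions. The window of Mdc1 is chr17:35841248-35841547 on the plus strand, with CCAAT, the motif of NF-Y, at -75 and TTTCCCGC, an E2F motif, at -16. That of Trp53bp1 is chr2:121271358-121271657 on the minus strand, with CNCCTCAG, the motif of STRA8 in mouse, at -79.
Mdc1: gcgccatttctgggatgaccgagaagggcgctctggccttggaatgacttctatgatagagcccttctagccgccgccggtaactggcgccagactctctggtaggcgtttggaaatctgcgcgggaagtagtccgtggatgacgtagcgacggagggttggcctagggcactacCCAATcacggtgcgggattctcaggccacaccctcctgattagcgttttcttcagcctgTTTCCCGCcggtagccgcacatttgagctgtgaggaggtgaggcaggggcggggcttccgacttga
Trp53bp1: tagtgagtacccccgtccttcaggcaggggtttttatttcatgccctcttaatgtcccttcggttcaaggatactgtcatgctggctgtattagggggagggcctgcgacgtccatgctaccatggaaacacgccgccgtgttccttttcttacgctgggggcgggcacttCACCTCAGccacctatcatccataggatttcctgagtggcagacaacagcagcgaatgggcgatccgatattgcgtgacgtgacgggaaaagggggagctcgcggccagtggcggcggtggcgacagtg
CCAAT was in 4 of the 6 windows (Mdc1, Uimc1, Mre11a and Rnf8) and in 37.4% of all 32851 windows. TTTCCCGC was in 1 of the 6 and 1.07% of all, CNCCTCAG in 1 of the 6 and 7.94% of all, and TTTGGCGC, another E2F motif, in 0 of the 6 and 0.514% of all. A match is a description of the letters and not a bound site.

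The ubiquitin ligases did not pass the test with the deposited size factors. Rnf8, which starts the ubiquitin signal, had 183, 141 and 150 normalised read counts in cKO, against 188, 236 and 205 in Control. All cKO libraries were below all controls, by a small margin for cKO replicate 1 and Control replicate 1. Rnf8 had a log2 fold change of -0.40 (SE 0.183, adjusted p = 0.125 by limma), and 0.17 scaled to the germ cell list (adjusted p = 0.507). Rnf8 was called lower with the Sertoli cell list (-0.80, adjusted p = 0.0141) and with that list without its most abundant gene, Clu (-0.82, adjusted p = 0.0013). Rnf8 had the fewest reads of the 10, 124 to 254 per library, and the largest SE. Rnf168, which extends the signal on H2A, had 1812, 1937 and 1954 normalised read counts in cKO, against 1993, 1952 and 1702 in Control. The groups overlapped, and the means differed by 0.988% (log2 fold change 0.0168, SE 0.0974, limma adjusted p = 0.927). Its value followed the scaling: 0.60 and called higher with the germ cell list (adjusted p = 0.000937), -0.38 with the Sertoli cell list (adjusted p = 0.173), -0.41 and called lower with that list without Clu (adjusted p = 0.0139), and -0.0691 with library totals. Within a library, log2 of Rnf168 over Mdc1 was -0.14 ± 0.0694 in cKO and -0.81 ± 0.114 in Control (SD, n = 3 each), without overlap (exact permutation test, 2-sided, p = 0.1, the smallest it can give).

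Both readers of the chromatin signal fell with the deposited factors, and turned to uncalled positive values of 0.11 (Uimc1) and 0.23 (Trp53bp1) scaled to the germ cell list. The markers of that list had a median of 0.15 under the same scaling. Uimc1 brings the BRCA1-A complex to ubiquitin chains. It had 1404, 1385 and 1418 normalised read counts in cKO, against 2068, 2049 and 1737 in Control. The cKO libraries had a coefficient of variation of 1.16% and lay all below the controls (log2 fold change -0.47, SE 0.0994, limma adjusted p = 0.00234). Trp53bp1 encodes 53BP1, which holds back resection and favours end joining. It had 4402, 4380 and 4237 normalised read counts in cKO, against 5412, 6055 and 5208 in Control. The groups did not overlap (log2 fold change -0.35, SE 0.0911, limma adjusted p = 0.00926), but the adjusted p was 0.0506 when cKO replicate 3 was left out.

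Rbbp8 encodes CtIP, the partner of the MRE11 complex in the first cut of resection. It had 1822, 2193 and 2240 normalised read counts in cKO, against 3234, 2615 and 2676 in Control. The groups did not overlap, with Control replicate 1 highest and cKO replicate 1 lowest. Rbbp8 fell by 26.6% on the means (log2 fold change -0.45, SE 0.107, limma adjusted p = 0.00588), and its log2 fold change was 0.14, not called, scaled to the germ cell list. Without cKO replicate 1 the adjusted p was 0.0542. Resection (Rbbp8) and its counterweight (Trp53bp1) were compared within libraries: log2 of Rbbp8 over Trp53bp1 was -1.06 ± 0.186 in cKO and -0.97 ± 0.235 in Control (SD, n = 3 each), with overlapping groups (exact permutation test, 2-sided, p = 0.6).

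**Figure D2:**
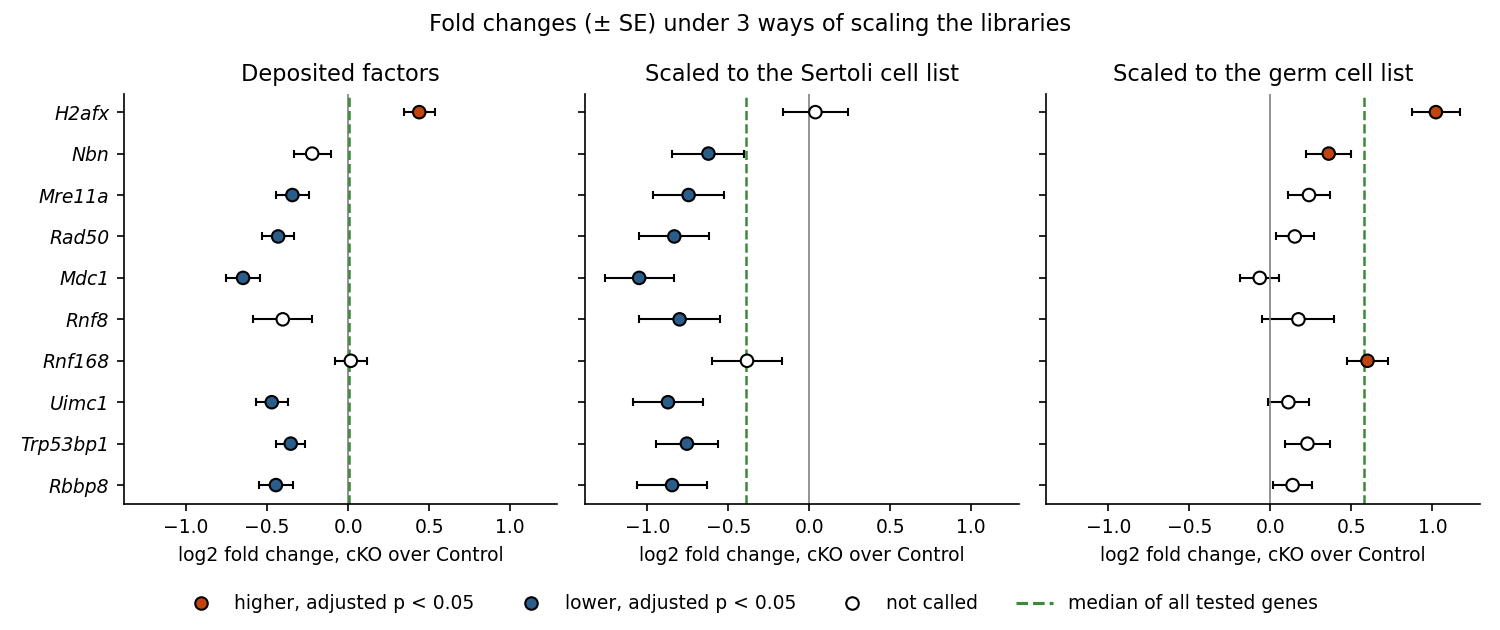
Log2 fold changes of the 10 genes, cKO over Control, with the deposited size factors and with libraries scaled to the summed Sertoli or germ cell markers. Error bars are SE, filled points passed an adjusted p of 0.05, and the dashed line is the median of all tested genes (0.01, -0.39 and 0.58). H2afx lies at 0.44, 0.038 and 1.02 and is the highest of the 10 in each panel, while Mdc1 is the lowest in each. The order repeats between panels by construction, as each scaling shifts all genes nearly alike.

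H2afx was also set against its partners within each library, a comparison that no scaling of libraries can move. Its value was 23.6%, 23.7% and 21.8% of the summed other 9 genes in cKO, against 10.9%, 13.8% and 14.7% in Control. The log2 ratio differed by 0.82 (-2.12 ± 0.0674 in cKO and -2.94 ± 0.229 in Control, SD, n = 3 each), a 1.77-fold difference. The groups did not overlap, and the exact permutation test (2-sided) gave p = 0.1, the smallest it can give. Against each of the 9 genes singly the ratio was higher in cKO without overlap, by 1.34-fold (Rnf168) to 2.13-fold (Mdc1). For every gene but Rnf168 the lack of overlap follows from the values above. There H2afx lay above all controls in each cKO library and the other gene below them. Set against the germ cell list, H2afx was 17.8%, 18.4% and 17.6% of the summed markers in cKO, against 6.81%, 10.5% and 9.69% in Control. This was a 2.03-fold difference with no overlap (exact permutation test, 2-sided, p = 0.1). Control replicate 1 was lowest, and without it the log2 difference was 0.83 in place of 1.02. Scaled to the same list, all tested genes had a median log2 fold change of 0.58, and 61.9% were called higher. Set against the Sertoli cell list, H2afx was 0.695%, 0.848% and 0.710% of the sum in cKO, against 0.813%, 0.709% and 0.671% in Control, and the groups overlapped. The log2 difference of 0.038 was smaller than the SD of either group, 0.158 in cKO and 0.142 in Control (n = 3 each; exact permutation test, p = 0.6), and it changed sign without cKO replicate 2 (-0.0527) or Control replicate 3 (-0.0215).

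**Figure D3:**
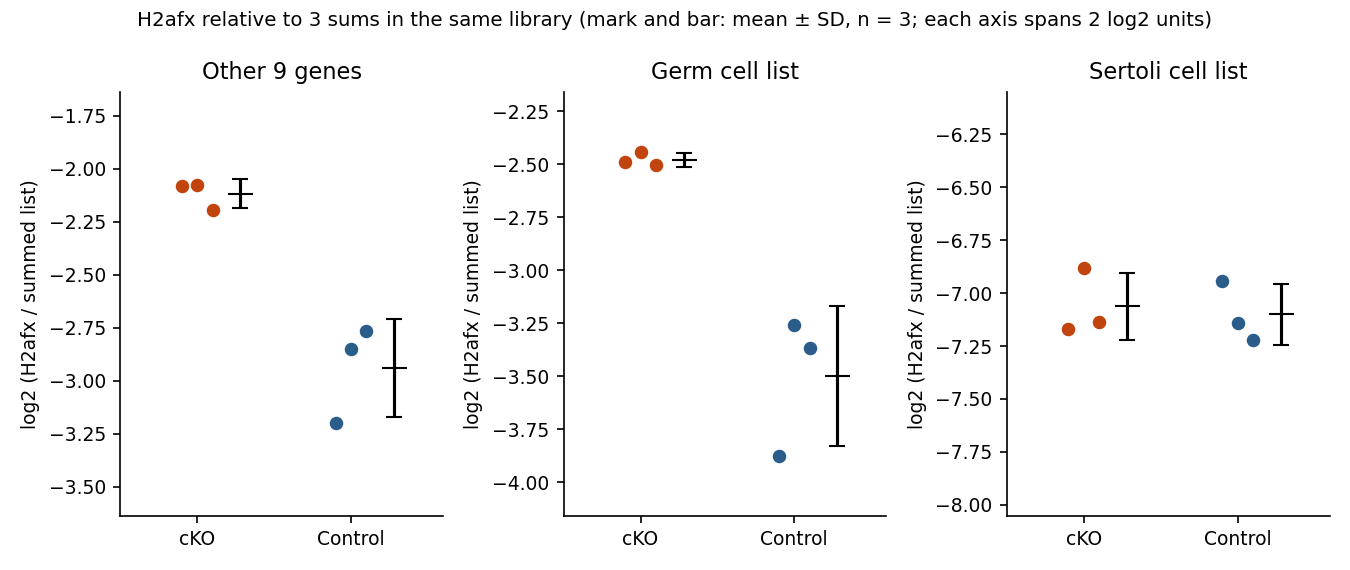
Log2 of H2afx over the summed other 9 genes, the summed germ cell list and the summed Sertoli cell list in the same library. Points are libraries, marks with bars are mean ± SD (n = 3 per group), and every axis spans 2 log2 units. The cKO libraries stand above the Control libraries in the first panels and overlap them in the Sertoli panel. The median log2 fold change of all tested genes was 0.58 scaled to the germ cell list and -0.39 scaled to the Sertoli cell list.

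Marker genes of testis cells also differed between the groups, and their part in the results above was not tested. The counts that follow are with the deposited size factors, with which 9.63% of all tested genes were higher and 10.4% lower. Of the 6 germ cell markers (among them Ddx4 and Dazl) 5 were lower and 0 higher, and their summed level was 19786 to 20826 in cKO and 27516 to 34856 in Control. All 16 meiotic prophase markers were lower, with sums of 10559 to 11942 in cKO and 25078 to 28681 in Control. Of 7 markers of differentiating spermatogonia 6 were lower, and of 10 stem cell markers 5 were higher and 0 lower. Of 12 genes of cycling cells, which include Mki67 and Top2a, 10 were lower, with sums of 27876 to 31366 in cKO and 37413 to 45197 in Control. Among somatic lists, 6 of 11 Sertoli markers were higher and 1 lower, with sums of 452540 to 509196 in cKO and 292090 to 414850 in Control. Of 7 Leydig markers 6 were higher, of 7 macrophage markers 5, of 5 endothelial markers 1 and of 3 erythroid markers 2, while 2 of 5 myoid markers were lower. With libraries scaled to the germ cell list, 61.9% of all tested genes were called higher and 1.41% lower. Under that scaling 12 meiotic and 4 differentiating markers were still lower, while 3 of 12 cycling and 2 of 5 myoid markers were higher and 0 lower. Scaled to the Sertoli cell list, 0 stem cell, Leydig, macrophage, endothelial and erythroid markers were higher, against 0.142% of all tested genes.

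Several of the smaller counts rested on single libraries. Macrophage markers called higher numbered 0 without cKO replicate 1 or 2, 1 without Control replicate 1 or 2, and 0 with library totals. Erythroid markers called higher numbered 0 without cKO replicate 1 or Control replicate 3 and 1 without Control replicate 1 or 2. Endothelial markers numbered 0 without cKO replicate 1 and with library totals. Myoid markers called lower numbered 0 without cKO replicate 1 or 2 and 1 without any other single library but Control replicate 1. Stem cell markers called higher numbered 3 without cKO replicate 1, cKO replicate 3 or Control replicate 3, and with library totals. Cycling markers called lower numbered 6 without cKO replicate 3. Leaving out that library also gave 4 lower markers of differentiating spermatogonia and 4 lower germ cell markers. The Leydig count stayed between 5 and 7 with 1 library left out, the Sertoli count between 6 and 7, and the meiotic count between 15 and 16.

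The other genes of the break response were counted from 7 lists. Of 81 genes listed 78 were in the table and 76 were tested, with 1 higher, 23 lower and a median log2 fold change of -0.10. Against the 10.4% of all genes called lower, the count was largest for the checkpoint kinases and clamp (7 of 13 lower, 0 higher, median -0.49) and for resection and single-strand binding (7 of 13 lower, 0 higher, median -0.30). Scaled to the germ cell list 48 of the 76 were higher and 0 lower, against 61.9% and 1.41% of all tested genes. Scaled to the Sertoli cell list 0 were higher and 34 lower, against 0.142% and 24.2% of all tested genes. When Clu was left out of that list 62 were lower, and so were 8610 of all 17570 genes tested. Leaving out each library in turn gave 18 to 24 lower.

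The apical kinases fell with the deposited factors: Atr (log2 fold change -0.82), which answers to single-stranded DNA, Atm (-0.73), which phosphorylates H2AX, and Prkdc (-0.51), the kinase of end joining. Atm averaged 2546 ± 48.6 normalised read counts in cKO and 4241 ± 386 in Control (SD, n = 3 each). Scaled to the germ cell list these 3 genes had log2 fold changes of -0.23, -0.15 and 0.07 and were not called. In resection, the nuclease gene Exo1 (-0.63), the helicase gene Brip1 (-0.72) and Rmi2 (-0.76), of the BLM dissolvasome, fell with the deposited factors, and had -0.05, -0.14 and -0.18, not called, scaled to the germ cell list. The number of lower genes in this list was 4 without cKO replicate 3. Of the BRCA1-A and BRCA1-BARD1 genes 2 of 6 were lower, Brca1 (-0.74) and its partner Bard1 (-0.48), and these became -0.16 and 0.10, not called, scaled to the germ cell list. Bard1 was not called without Control replicate 1 (adjusted p = 0.0682).

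Of 21 ubiquitin and SUMO enzymes of break chromatin 4 were lower and 0 higher (median -0.04). Herc2, a ligase that works with RNF8, had a log2 fold change of -0.53, the Polycomb-type reader gene L3mbtl2 -0.57 and the PCNA ligase gene Rad18 -0.51. Scaled to the germ cell list they were 0.05, 0.01 and 0.07 and not called. Of 8 effectors of 53BP1 that were tested Pagr1a was lower (-0.58, and 0.00, not called, scaled to the germ cell list), and 2 were lower without Control replicate 3. Of 10 genes that modify H2AX 2 were lower: Baz1b (-0.48), the kinase of its terminal tyrosine, and Mcph1 (-0.39), a reader of γH2AX, which were 0.11 and 0.19, not called, scaled to the germ cell list. Mcph1 was no longer called when cKO replicate 2 (adjusted p = 0.053), cKO replicate 3 (0.0821) or Control replicate 1 (0.0722) was left out, and 1 gene of the list was then lower. Of 5 other H2A variant genes tested, H2afz, which encodes H2A.Z, was higher (log2 fold change 0.30, limma adjusted p = 0.0406) and 0 were lower. H2afz was not called by edgeR (adjusted p = 0.0563), with library totals, or without any 1 of 5 libraries, all but Control replicate 3, and it was -0.11 scaled to the Sertoli cell list.

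**Figure D4:**
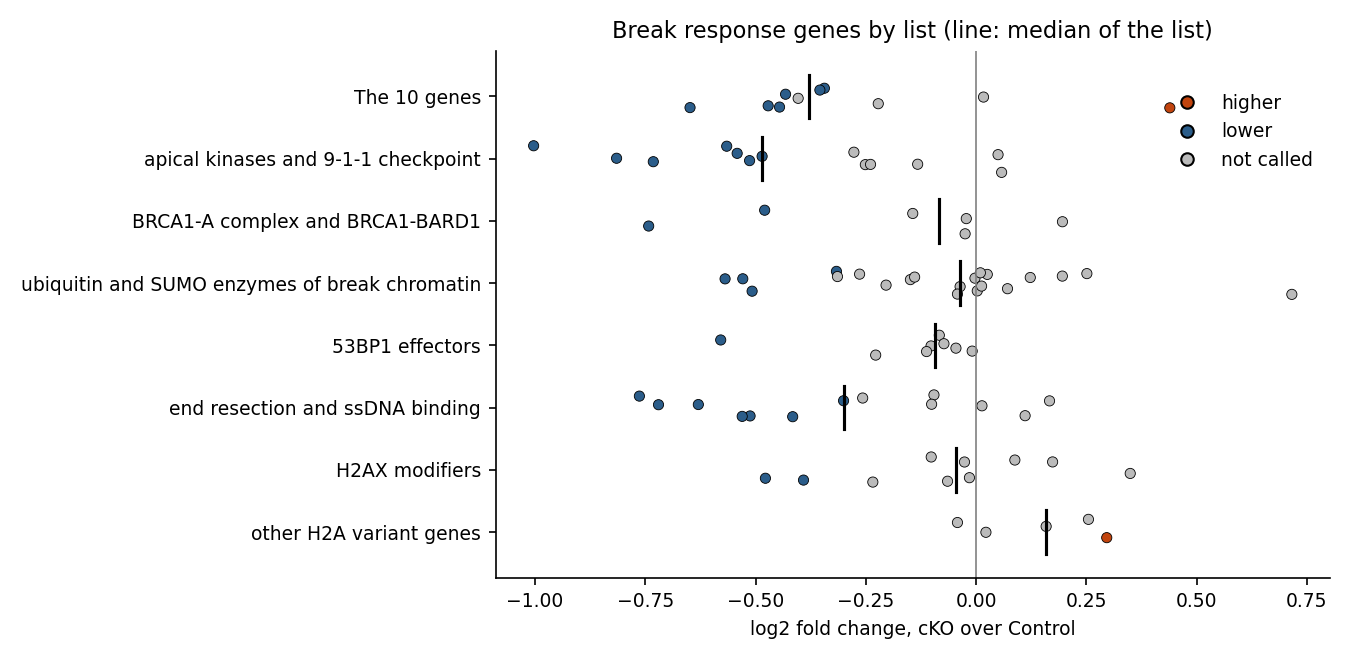
Log2 fold changes, cKO over Control with the deposited size factors, of the 10 genes and of the 7 lists of other break response genes. Each point is a gene, coloured by its call at an adjusted p of 0.05, and the vertical line is the median of the list (-0.38 for the 10 genes and -0.49 for the checkpoint kinases and clamp). With these factors H2afx and H2afz are the points called higher, H2afz being negative scaled to the Sertoli cell list, and scaled to the germ cell list 0 genes of the plot are called lower.

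Levels were compared between genes per kilobase of annotated exon. H2afx was the highest of the 10, at 2618 ± 136 normalised reads per kilobase in cKO and 1935 ± 194 in Control (SD, n = 3 each). Rnf8 was the lowest, at 13.5 ± 1.89 in cKO and 17.9 ± 2.10 in Control (SD, n = 3 each). Both places held when the longest coding transcript was used in place of all annotated exons. By all annotated exons the 8 genes between them were within 167 to 426 normalised reads per kilobase in cKO and 227 to 445 in Control. In cKO the order after H2afx was Rnf168, Nbn, Rad50, Trp53bp1, Mdc1, Uimc1, Mre11a and Rbbp8, and the ranges of neighbours overlapped from Nbn to Uimc1. In Control Mdc1 came second, and the ranges of neighbours overlapped from Mdc1 to Uimc1 and for Mre11a and Rbbp8. Places between H2afx and Rnf8 depended on the length used. Per kilobase of its longest coding transcript Rbbp8 was second in both groups (592 ± 65.1 in cKO and 807 ± 96.9 in Control, SD, n = 3 each). By that length Uimc1 took place 3 in both groups, Rnf168 place 5 in cKO and Mdc1 place 5 in Control.

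**Figure D5:**
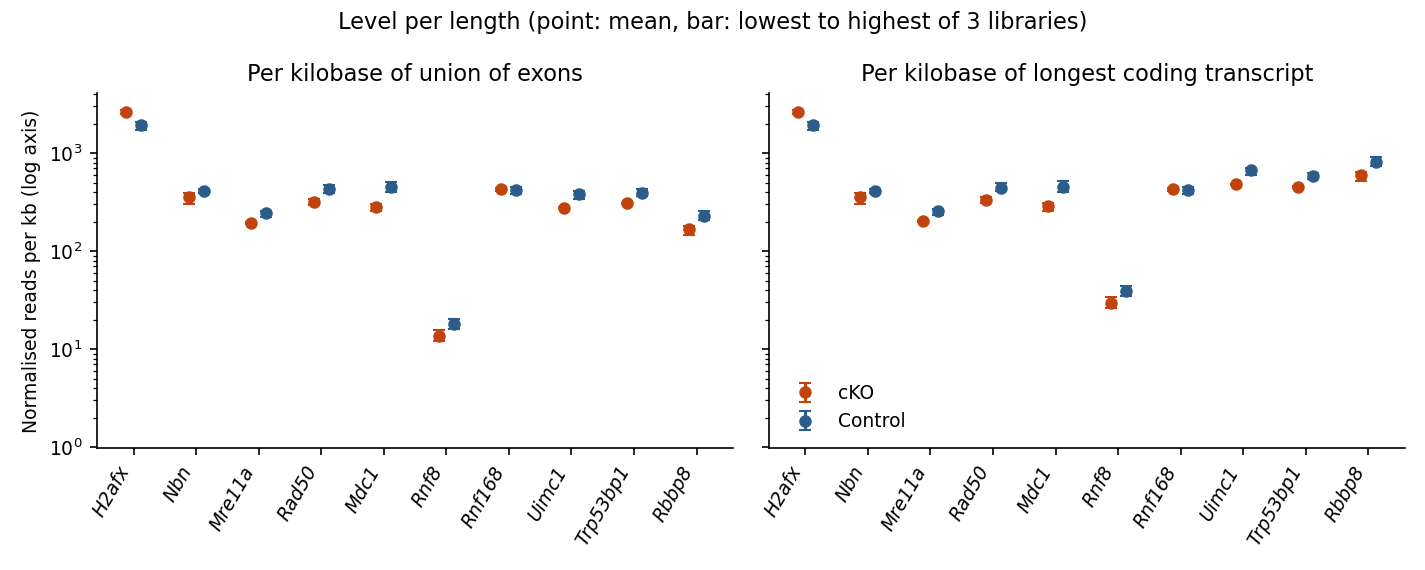
Normalised reads per kilobase (log axis) of the 10 genes, by the union of annotated exons and by the longest coding transcript. Points are means of 3 libraries and bars run from the lowest to the highest library. H2afx lies at 2618 in cKO and 1935 in Control in both panels, and Rnf8 is the lowest gene in both.

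The genes whose profile over the 6 libraries was most like that of H2afx were Herpud1, Sobp, Plscr3, Steap3 and Zdhhc14. Likeness was the root mean square difference of log2 values after each gene was centred on its mean, and it was 0.0226 for Herpud1 and 0.0341 to 0.0375 for the other 4. Herpud1, a gene of endoplasmic reticulum-associated degradation, had 1177, 1287 and 1207 normalised read counts in cKO, against 815, 967 and 922 in Control. Of the other 9 break signalling genes Rnf168 was nearest to H2afx (0.255) and Mdc1 farthest (0.581). Among all tested genes their likeness ranked only 6295 (Rnf168) and 15159 (Mdc1).

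Some exon bases of the 10 genes are shared with other annotated genes, and the strand setting of the counting is not given. Trp53bp1 shared 15% of its exon bases with Tubgcp4 on the other strand, which had a log2 fold change of -0.09 (limma adjusted p = 0.618). Rnf8 shared 13.2% with Gm28043 on the same strand (log2 fold change -0.00, adjusted p = 0.993), and its value is the less certain for that. Mre11a shared 2.60% with Ankrd49 (log2 fold change 0.04, adjusted p = 0.83). H2afx shared 10.2% with Gm44335, Uimc1 8.18% with Gm6344 and Rbbp8 3.21% with an antisense gene. These partners were not found by symbol in the deposited table, so they could not be analysed.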

How the data were processed

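RNA of whole testes was measured in 6 libraries, grouped by their titles. Per the submitters' processing notes StringTie 1.3.1 and RSEM were used, for steps they do not state. The aligner, genome build, annotation and strand setting were not given in the sources used here. Although the file name says raw counts, the authors' deposited values are a normalised signal. In each column 100% of values were whole multiples of 1 step (tolerance 1e-06), and the inverse of the step equalled the recomputed median-of-ratios size factor (0.825 to 1.35), so whole reads were recovered. Among recovered counts of 1 to 20, 78.1% were even, a feature whose effect on the tests was not examined. Genes under 10 reads in all were not in the table.

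The test was limma 3.58.1 (eBayes, trend) on log2(value + 2), a scale that understates the change of low genes, 2-sided, with Benjamini-Hochberg adjustment over 17570 genes. These were the genes left by edgeR's filterByExpr (minimum count 10), which took out 4649. Calls were made at an adjusted p of 0.05. edgeR 4.0.16 (quasi-likelihood) and DESeq2 1.42.0 were run on the recovered reads, in R 4.3.3. The edgeR test called 1575 genes higher and 1857 lower. On simulated counts for these 17570 genes limma recovered 59.7%, 74.6% and 92.4% of genes changed 1.5-fold, 2-fold and 4-fold, with 6.79% false calls, more than the nominal share. The simulation changed only 67, 67 and 66 genes by these folds, whereas 20% of tested genes were called in the data. Its shares therefore need not hold for the data. No pair of libraries was a duplicate (chi-square per degree of freedom 10.2 or more). The labels do not say whether each library is a different animal. The p-values therefore reflect the spread of these libraries alone, and that spread may be technical.

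The members and lists were chosen with earlier results of these data known. Named genes were the 10 members, up to 3 called genes with the smallest p from each of the 7 lists, and the 5 genes most like H2afx. Lengths and exon overlaps came from GENCODE M21 (GRCm38) and promoters from RefSeq. Alternatives were other pseudocounts, no filter, edgeR, DESeq2, library totals, scaling to marker sums, each library left out and a replicate block. Scaling to the Sertoli list without Clu, its most abundant gene, was chosen after seeing the data.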

Additional observations from a re-analysis of the deposited data

How the results depend on the processing

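H2afx kept its direction under all 16 alternatives and its call under 14, its log2 fold change being 0.038 scaled to the Sertoli cell list and 0.0163 scaled to that list without Clu. The number of the 10 genes called higher was 0 under each of these scalings and 3 scaled to the germ cell list, where 0 were lower. Leaving out 1 library gave 1 higher and 4 to 6 lower, and 0.35 to 0.49 for H2afx. Over all genes the calls were 25 higher and 4246 lower scaled to the Sertoli list, 62 and 8610 without Clu, 10868 and 247 scaled to the germ cell list, and 807 higher with library totals. Leaving out 1 library gave 916 to 1764 higher and 1278 to 1792 lower. The scalings move all genes together by construction.

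Scaled to the germ cell list the log2 fold changes turned positive for Nbn (0.36), Mre11a (0.24), Rad50 (0.15), Rnf8 (0.17), Uimc1 (0.11), Trp53bp1 (0.23) and Rbbp8 (0.14). Each of these was still below the median of all tested genes, which this scaling moved to 0.58. The germ cell markers themselves had a median of 0.15 under it. Rnf168 turned negative with library totals (-0.0691), the Sertoli list (-0.38) and that list without Clu (-0.41). It was also negative without cKO replicate 3 (-0.00355) and without Control replicate 3 (-0.054). With the deposited factors its log2 fold change was 0.0168, less than its SE of 0.0974. Relative to the median gene it was 0.00487 to 0.0185 among the 2 marker scalings, library totals and the deposited factors. The cause of the sign changes was not tested. Rnf168 was 0.60 scaled to the germ cell list, and -0.054 to 0.0598 with 1 library left out. The log2 difference of H2afx over the Sertoli list ran from -0.0527 to 0.12 with 1 library left out, over the germ cell list from 0.83 to 1.14 and over the other 9 genes from 0.69 to 0.91.

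Same-numbered libraries did not deviate together (r = -0.0374, -0.0181 and 0.00628), so no pairing by number was seen. With 3 libraries a group this cannot exclude a pairing, and the labels do not state one. With the replicate block 1535 genes were higher and 1771 lower, and H2afx (0.44) and the 6 lower genes kept their calls. Rnf8 had the fewest reads of the 10 genes, 124 to 254 per library.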
